A study of Mus musculus with 8 samples.

Results

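The mitochondrial ribosomal protein genes are the protein-coding genes whose symbols begin with Mrpl or Mrps followed by a number, prefixes given to proteins first assigned to the large and the small subunit of the mitochondrial ribosome. They were picked by symbol from the annotated gene identifiers and not by their values, and 78 genes of the 27179 identifiers in the count table met the rule, 49 Mrpl and 29 Mrps. The prefix does not always give the place of the protein: the products of Mrps18a and Mrps30 sit in the large subunit, and that of Mrps36 was later assigned to the 2-oxoglutarate dehydrogenase complex. Counts and sums below go by symbol. Their RNA was measured by RNA-seq in the cerebral cortex of 8 mouse embryos, 4 with Taf8 deleted (genotype Taf8 -/lox) and 4 with Taf8 intact (Taf8 +/+), each library from its own embryo. The Taf8 protein is part of TFIID, a complex that binds the promoters of protein-coding genes and starts the assembly of the transcription machinery. The intact embryos carry no lox allele, and for the recombinase, its driver, the embryonic age and the strain the sources used here give no entry. The animal numbers of the Taf8-deleted embryos all lie above those of the intact embryos, so genotype and whatever those numbers mark cannot be told apart.

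Mitochondria have their own ribosome, which translates the few messenger RNAs of the mitochondrial genome into core subunits of the respiratory chain. Its ribosomal RNAs come from mitochondrial DNA, but all of its proteins are encoded in the nucleus, made in the cytosol and imported. Many of these proteins have a counterpart in the bacterial ribosome and others are found only in mitochondria. The brain depends heavily on the respiratory chain, and loss of several of these proteins causes disease in humans.

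The 8 libraries held between 39590959 and 44788200 counts, of which the 78 genes together took between 0.217% and 0.230% in Taf8-deleted cortex and between 0.202% and 0.212% in intact cortex. Taf8 itself had 30, 14, 29 and 14 counts in the 4 Taf8-deleted libraries, against 1491, 1383, 1222 and 1403 counts in the intact libraries, so all 8 libraries matched their labels. Levels below are CPM, counts relative to the total of the library, scaled between libraries by the trimmed mean of M-values (TMM). A gene is called higher or lower where the Benjamini-Hochberg adjusted p over all genes tested was under 0.05 in edgeR's quasi-likelihood test, and differences are log2 fold changes, Taf8-deleted minus intact, with their standard error (SE). Group means are given ± SD over the 4 libraries of a group. Summed markers of neurons were lower in Taf8-deleted cortex (5189 to 5668 CPM, against 6996 to 7712 CPM in intact cortex, 9 of 10 genes called lower), and those of radial glia were higher (3130 to 3355 CPM in Taf8-deleted, against 2188 to 2506 CPM in intact cortex, 7 of 10 called higher and 2 called lower). All 8 endothelial and all 8 pericyte markers were called higher, with endothelial sums of 195 to 243 CPM in Taf8-deleted against 170 to 178 CPM in intact cortex, and pericyte sums of 242 to 283 CPM in Taf8-deleted against 202 to 223 CPM in intact cortex. Meningeal markers (5 of 7 tested called higher) summed to between 19.4 and 148 CPM in Taf8-deleted libraries and between 16.4 and 37.9 CPM in intact ones, highest in Taf8-deleted libraries 2 and 3. Choroid plexus markers (none of 6 called) summed to between 14.5 and 930 CPM in Taf8-deleted libraries and between 14.3 and 301 CPM in intact ones. Microglial markers (3 of 8 called higher and 1 lower) summed to between 37.5 and 46.7 CPM in Taf8-deleted libraries and between 38.0 and 42.1 CPM in intact ones. Red blood cell markers (3 of 6 tested called higher) summed to between 88.0 and 155 CPM in Taf8-deleted libraries and between 86.9 and 103 CPM in intact ones. No listed marker was at 0 in every library, and the part of cell composition in the results below was not tested. In whole cortex, fewer cells of a type and less RNA per cell cannot be told apart.

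The mitochondrial ribosomal protein genes moved in both directions after loss of Taf8. Of the 77 tested, 30 were called higher and 32 lower, 80.5% in all, where 63.5% of all 16074 genes tested were called (30.6% higher and 32.9% lower). These genes were expressed well above the typical gene, with a median of 23.8 against 8.53 CPM per kilobase of gene length, and the part of read depth in the number of calls was not tested. Their changes were small: the median size was 0.21 on the log2 scale without regard to sign, against 0.27 over all genes tested. The median change was 0.06, with a range between -1.19 and 0.53, and the median over all genes was 6.31e-05. None rose by 1.5-fold or more and 6 fell by that much, where 11% of all genes rose and 9.54% fell by at least 1.5-fold with a call. In 55 of the 77 genes (71.4%) the 4 Taf8-deleted libraries did not overlap the 4 intact ones, 27 lying above and 28 below, where 57.7% of all genes did not overlap (27.6% above and 30.1% below). Without Taf8-deleted libraries 2 and 3, which held the most meningeal markers, 20 were called higher and 29 lower. Without Taf8-deleted library 1 and intact library 4, which held the most choroid plexus markers of their groups, the counts were 28 and 24. Both fits rest on fewer libraries, and the shares of all genes called in them are not given here. Nothing particular to the members can therefore be read from these counts. The balance of higher and lower calls depended on the scaling, among the members and over all genes. With upper-quartile factors, and likewise with library totals alone, 40 members were called higher and 25 lower. The median over all genes moved to 0.0579 and 0.062. With upper-quartile factors, 5837 of all genes were called higher and 4480 lower, and with library totals 5894 and 4416. With TMM these numbers were 4919 and 5290.

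**Figure D1:**
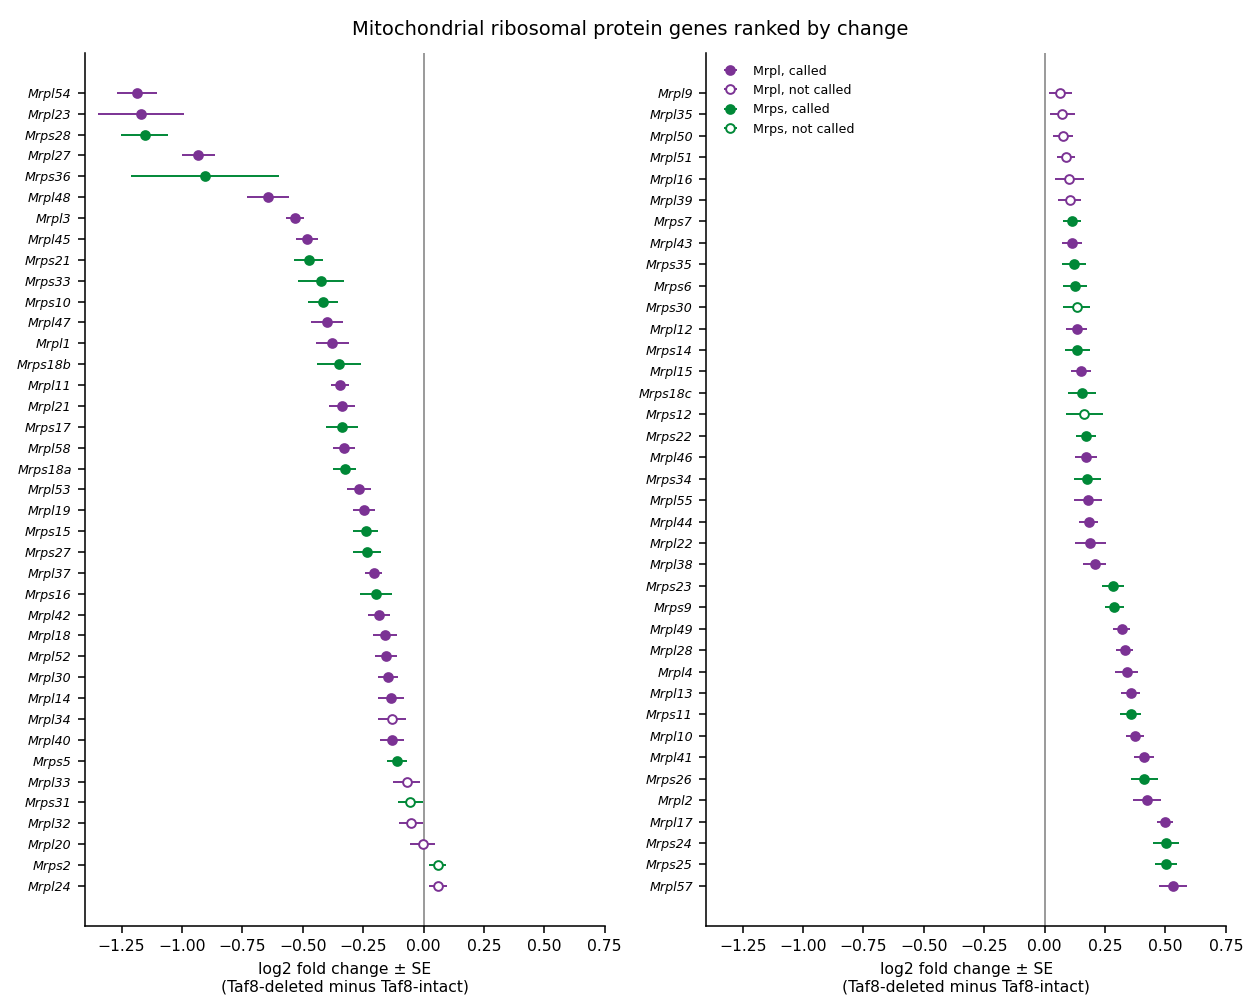
Each point is the log2 fold change (Taf8-deleted minus Taf8-intact, 4 embryos each) of 1 of the 77 tested genes, ranked, with its SE as a bar, purple for Mrpl and green for Mrps symbols, filled where called. The changes lie between -1.19 and 0.53, with 32 called lower, 15 not called and 30 called higher, and the falls reach further than the rises. Among the largest falls there is a gap between Mrps36 at -0.91 and Mrpl48 at -0.64.

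Both prefixes held genes that moved each way. Of the 48 Mrpl genes tested, 17 were called higher and 20 lower, with a median log2 fold change of 0.03. Of the 29 Mrps genes, among them Mrps18a and Mrps36 (both lower) and Mrps30 (not called), 13 were called higher and 12 lower, with a median of 0.11. Genes with a bacterial counterpart split into 16 higher and 19 lower of 45, and genes of proteins found only in mitochondria into 13 higher and 11 lower of 29. The remaining 3, Mrpl55 (higher), Mrps28 and Mrps36 (both lower), were put in neither class.

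Summed over the 49 Mrpl genes, the level was 1456, 1523, 1494 and 1473 CPM in the 4 Taf8-deleted libraries, against 1463, 1431, 1439 and 1483 CPM in the intact libraries. The groups overlapped, with means of 1486 ± 29.2 CPM in Taf8-deleted and 1454 ± 23.7 CPM in intact cortex (SD, n = 4 each), a difference of 2.22%. Over the 29 Mrps genes the sum was 677, 709, 699 and 676 CPM in Taf8-deleted libraries, against 650, 638, 658 and 666 CPM in intact libraries. Here every Taf8-deleted library lay above every intact library, and the means of 690 ± 16.4 CPM in Taf8-deleted and 653 ± 12.1 CPM in intact cortex (SD, n = 4 each) differed by 5.71%. No test was made on these sums. The genes called higher summed to 1095 ± 24.2 in Taf8-deleted against 897 ± 17.4 CPM in intact cortex, and those called lower to 595 ± 17.1 CPM in Taf8-deleted against 739 ± 10.1 CPM in intact cortex (SD, n = 4 each). Those 2 classes were chosen by the test itself, so their sums only describe it.

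**Figure D2:**
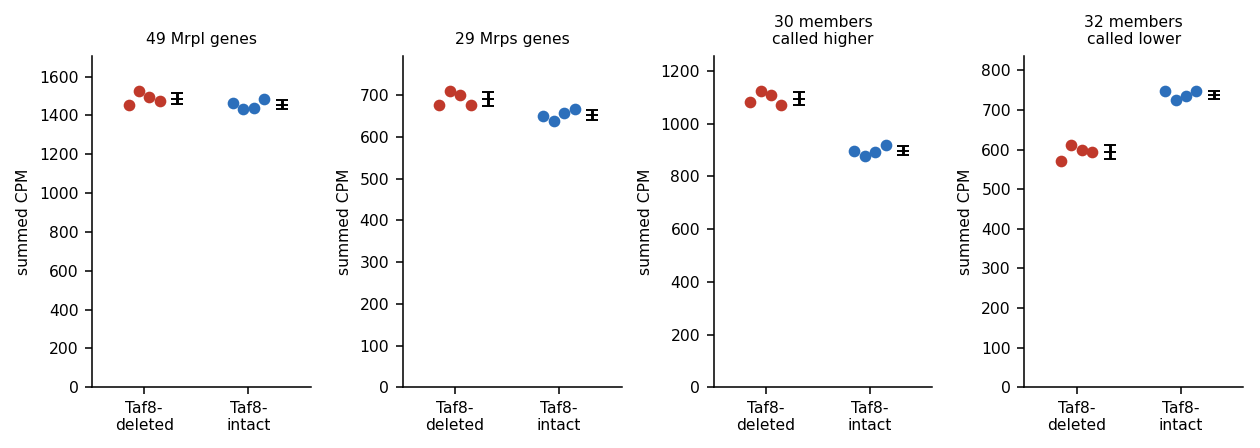
Summed CPM in each of the 4 Taf8-deleted (left) and 4 Taf8-intact (right) libraries for the Mrpl genes, the Mrps genes (by symbol, so with Mrps18a, Mrps30 and Mrps36), and the genes called higher and lower, with mean and SD beside the points and axes starting at 0. The sums by symbol differ by 2.22% and 5.71%, while the called classes, chosen by the test, part widely.

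The largest falls were in Mrpl54, Mrpl23, Mrps28, Mrpl27, Mrps36 and Mrpl48. Mrpl54, which encodes a protein found only in mitochondrial ribosomes (GRCm38.p6 chromosome 10, 81264722 to 81266926), had 5.17, 5.47, 5.76 and 6.23 CPM in Taf8-deleted libraries, against 13.4, 11.9, 12.04 and 14.2 CPM in intact libraries. All Taf8-deleted libraries lay at less than the lowest intact library, and the log2 fold change was -1.19 ± 0.08 (SE; edgeR's quasi-likelihood test, Benjamini-Hochberg adjusted p = 1.71e-07). Mrps28, whose product belongs to the small subunit (chromosome 3, 8802146 to 8923857), had 3.79, 4.90, 4.70 and 4.74 CPM in Taf8-deleted and 10.7, 9.69, 9.17 and 10.7 CPM in intact libraries. Again the groups were apart, with a change of -1.15 ± 0.10 (adjusted p = 6.55e-07). No stretch of 100 bases in the transcripts of Mrpl54 or Mrps28 was identical to an annotated pseudogene transcript.

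Mrpl27 encodes the counterpart of bacterial L27, a protein near the peptidyl transferase centre (chromosome 11, 94653770 to 94661932). It had 7.47, 8.19, 7.34 and 8.20 CPM in Taf8-deleted libraries, against 13.8, 14.7, 15.6 and 15.4 CPM in intact libraries, without overlap, a change of -0.93 ± 0.07 (adjusted p = 2.22e-07). Mrpl48, a protein specific to mitochondria, fell to 5.09 ± 0.458 CPM in Taf8-deleted against 7.95 ± 0.477 CPM in intact cortex (SD, n = 4 each), a change of -0.64 ± 0.09 on the log2 scale (adjusted p = 4.25e-05).

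Mrpl23, the counterpart of bacterial L23 at the exit of the peptide tunnel, and Mrps36 were the tested members with the lowest levels. Mrpl23 had 18, 20, 19 and 17 counts in Taf8-deleted libraries, against 39, 40, 44 and 39 counts in intact libraries, without overlap (log2 fold change -1.17 ± 0.18, adjusted p = 0.0001). Mrps36 had 18, 12, 8 and 21 counts in Taf8-deleted and 24, 35, 28 and 21 counts in intact libraries. Its groups overlapped, and the call (-0.91 ± 0.31, adjusted p = 0.0212) was lost without Taf8-deleted library 2 (adjusted p = 0.0605), without Taf8-deleted library 3 (0.0622) or without intact library 2 (0.0709). Without both Taf8-deleted libraries 2 and 3 the change of Mrps36 was -0.49 (adjusted p = 0.203).

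Pseudogenes named after a member are annotated for 4 of the 77 tested members, Mrpl23, Mrpl27, Mrpl48 and Mrps36, all of them among the 6 largest falls. Of 100-base windows in the transcripts of Mrpl23, 64.1% were identical to its pseudogene, against 19.9% for Mrpl27, 19.1% for Mrps36 and 3.1% for Mrpl48, counting any annotated pseudogene. How the authors' counting treated reads that match several places was not given in the sources used, so the levels of these 4 genes are uncertain, and so are those of other members with shared windows. Over the other 73 genes the median log2 fold change was 0.07, with 30 called higher and 28 lower. Counting unnamed pseudogenes as well, 13 tested members share such a window, of which 2 (Mrpl22 and Mrps25) were called higher, 10 lower and 1 was not called, against 28 higher and 22 lower among the 64 that share none. These 4 genes were singled out after their values were seen, and the part of shared sequence in their falls was not tested.

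Outside the 26 members with the lowest levels per length, the largest fall was that of Mrpl3, the counterpart of bacterial L3, with 33.8, 35.2, 34.9 and 35.1 CPM in Taf8-deleted libraries against 51.3, 48.2, 51.5 and 50.2 CPM in intact libraries. Each group was tight and the groups were far apart (-0.53 ± 0.04, adjusted p = 1.38e-07). Mrpl45, which anchors the ribosome at the inner membrane, fell to 26.1 ± 1.36 CPM in Taf8-deleted against 36.5 ± 0.693 CPM in intact cortex (-0.48 ± 0.05, adjusted p = 1.83e-06). The small-subunit genes Mrps21 (15.3 ± 1.06 CPM in Taf8-deleted against 21.3 ± 0.838 CPM in intact cortex, -0.48 ± 0.06, adjusted p = 2.3e-05) and Mrps33 (3.75 ± 0.288 CPM in Taf8-deleted against 5.04 ± 0.262 CPM in intact cortex, -0.43 ± 0.09, adjusted p = 0.00173) complete the 10 largest falls. The SD is over n = 4 libraries each, and in all 3 of these genes every Taf8-deleted library lay below every intact one.

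The rises were smaller than the largest falls. Mrpl57, a protein specific to mitochondria, had 33.4, 34.9, 32.8 and 31.4 CPM in Taf8-deleted libraries, against 22.2, 21.2, 23.0 and 25.3 CPM in intact libraries. The groups did not overlap, and the change of 0.53 ± 0.06 (adjusted p = 5.9e-06) was the largest rise of the family. Mrpl17, the counterpart of bacterial L17, had 51.9, 53.0, 50.9 and 50.9 CPM in Taf8-deleted and 36.4, 36.8, 35.7 and 37.4 CPM in intact libraries (0.50 ± 0.03, adjusted p = 1.36e-07). The 4 libraries of each group lay close together, and this was the smallest p among the rises.

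The small-subunit genes Mrps24, the counterpart of bacterial S3, and Mrps25, specific to mitochondria, each rose by 0.50 ± 0.05 (adjusted p = 6.11e-06 and 1.33e-06). Mrps24 averaged 34.8 ± 2.33 CPM in Taf8-deleted and 24.6 ± 1.02 CPM in intact cortex, and Mrps25 averaged 37.6 ± 1.92 CPM in Taf8-deleted and 26.5 ± 0.604 CPM in intact cortex (SD, n = 4 each). Of the 6576 exon bases annotated for Mrps25, 4590 overlap exons of Nr2c2, a nuclear receptor gene on the opposite strand. In these unstranded libraries reads from the overlap cannot be told apart. Nr2c2 moved the other way, with 100 CPM in Taf8-deleted and 150 CPM in intact cortex (-0.58 ± 0.04, adjusted p = 2.84e-07). Of the 1466 exon bases annotated for Mrps24, 226 overlap exons of Urgcp on the same strand. Urgcp was also called higher, with 61.1 CPM in Taf8-deleted and 45.2 CPM in intact cortex (0.44 ± 0.05, adjusted p = 5.89e-06).

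Mrpl2, the counterpart of bacterial L2 in the core of the large subunit, rose by 0.42 ± 0.06 (40.1 ± 3.23 CPM in Taf8-deleted against 29.9 ± 1.20 CPM in intact cortex, adjusted p = 4.28e-05). Mrpl10, which with Mrpl12 forms the stalk that recruits translation factors, rose by 0.38 ± 0.04 (50.7 ± 0.948 CPM in Taf8-deleted against 39.1 ± 1.40 CPM in intact cortex, adjusted p = 2.96e-06). Mrps26 and Mrpl41, both specific to mitochondria, each rose by 0.41 on the log2 scale, with SE of 0.06 and 0.04 (adjusted p = 4.88e-05 and 3.34e-06). Mrps11 and Mrpl13, with bacterial counterparts S11 and L13, each rose by 0.36 ± 0.04 (adjusted p = 2.09e-05 and 7.88e-06). In all 10 of the largest rises every Taf8-deleted library lay above every intact library.

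**Figure D3:**
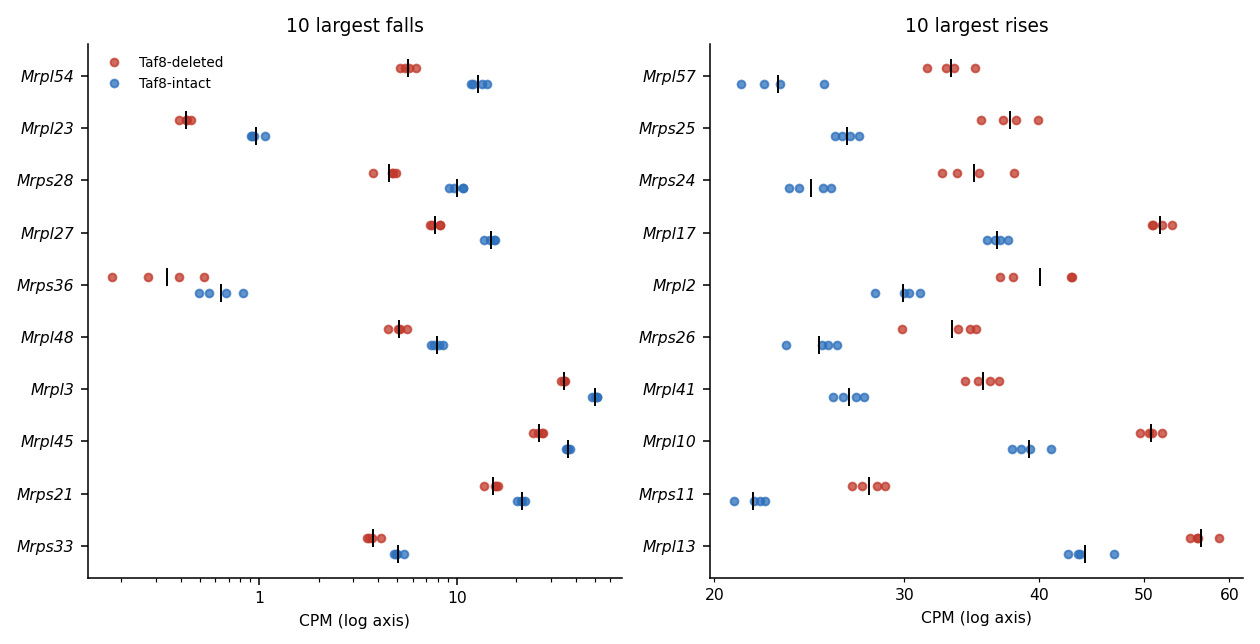
CPM on log axes in each of the 4 Taf8-deleted and 4 Taf8-intact libraries for the 10 largest falls (left panel) and the 10 largest rises (right panel), black ticks marking group means. The groups overlap only in Mrps36, at under 1 CPM, and the falls span a far wider range of levels than the rises.

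The other members called higher were Mrpl4, Mrpl12, Mrpl15, Mrpl22, Mrpl28, Mrpl38, Mrpl43, Mrpl44, Mrpl46, Mrpl49, Mrpl55, Mrps6, Mrps7, Mrps9, Mrps14, Mrps18c, Mrps22, Mrps23, Mrps34 and Mrps35. The other members called lower were Mrpl1, Mrpl11, Mrpl14, Mrpl18, Mrpl19, Mrpl21, Mrpl30, Mrpl37, Mrpl40, Mrpl42, Mrpl47, Mrpl52, Mrpl53, Mrpl58, Mrps5, Mrps10, Mrps15, Mrps16, Mrps17, Mrps18a, Mrps18b and Mrps27. The 15 not called were Mrpl9, Mrpl16, Mrpl20, Mrpl24, Mrpl32, Mrpl33, Mrpl34, Mrpl35, Mrpl39, Mrpl50, Mrpl51, Mrps2, Mrps12, Mrps30 and Mrps31, with log2 fold changes between -0.13 and 0.16. Some calls among the smaller changes rarely held: of 20 alternatives, that of Mrpl14 was lost in 18, and those of Mrpl40 and Mrps5 in 16 each. Among the 15 not called, Mrpl51 was the only one whose groups did not overlap (35.9 ± 0.496 CPM in Taf8-deleted against 33.8 ± 0.798 CPM in intact cortex, SD, n = 4 each, adjusted p = 0.0558). Mrpl36 was not tested, with 1, 4, 2 and 4 counts in Taf8-deleted and 1, 2, 7 and 4 counts in intact libraries, near the floor of 3 counts (0.0670 to 0.0758 CPM).

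The product of bacterial S18 has 3 counterparts in mitochondria, encoded by Mrps18a, Mrps18b and Mrps18c, and their genes did not move alike. Mrps18a, the large-subunit one, had 18.8, 20.2, 19.6 and 18.7 CPM in Taf8-deleted libraries, against 24.1, 23.0, 25.3 and 24.5 CPM in intact libraries (-0.33 ± 0.05, adjusted p = 9.87e-05). Mrps18b had 4.69, 4.97, 4.83 and 4.84 CPM in Taf8-deleted and 6.95, 5.56, 6.30 and 5.81 CPM in intact libraries (-0.35 ± 0.09, adjusted p = 0.00483). Its level is uncertain, since 56.9% of its 100-base windows are shared with other genes, 22.2% with a pseudogene, and 638 of its 2089 exon bases overlap an antisense gene. In both genes every Taf8-deleted library was the lower. Mrps18c was slightly higher, with 10.6, 10.7, 11.3 and 11.3 CPM in Taf8-deleted libraries against 10.1, 9.87, 9.83 and 9.63 CPM in intact libraries (0.15 ± 0.06, adjusted p = 0.0368). That call was lost without any one of 6 of the libraries (adjusted p between 0.0516 and 0.0799) and in DESeq2 (adjusted p = 0.0671). The difference between the paralogs was not itself tested.

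Of the members on the chromosome of Taf8, 2 lie within 1 Mb of it. Mrps10 lies 101.9 kb away and fell to 9.23 ± 0.266 CPM in Taf8-deleted against 12.3 ± 0.661 CPM in intact cortex (SD, n = 4 each; -0.42 ± 0.06, adjusted p = 9.53e-05). Mrpl2 lies 833.2 kb away and rose, as given above. The 2 nearest members therefore moved in opposite directions.

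The falls were more frequent among members with low levels. When the 77 genes were ordered by their mean CPM per kilobase over all 8 libraries, 7 of the lowest 26 were called higher and 17 lower, with a median log2 fold change of -0.34. All 6 falls of at least 1.5-fold were among these 26 genes. In the middle 25 genes, 11 were called higher and 6 lower (median 0.10), and in the highest 26, 12 were called higher and 9 lower (median 0.09). Across the 77 genes the level and the log2 fold change had a Spearman correlation of 0.25 and, with log level, a Pearson correlation of 0.41, given as a description since genes of the same libraries are not independent and the level enters both. Mrpl52 had the highest level per length, 74.6 CPM per kilobase in Taf8-deleted and 83.2 in intact cortex. Its fall was small (-0.16 ± 0.05, adjusted p = 0.0103) and was not called with upper-quartile factors (adjusted p = 0.0855), with library totals (0.112), or without Taf8-deleted library 1 and intact library 4 (0.103). Next came Mrpl13 with 71.8 CPM per kilobase in Taf8-deleted and 56.1 in intact cortex. Mrps36 was the lowest of those tested, with 0.479 CPM per kilobase in Taf8-deleted and 0.895 in intact cortex.

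**Figure D4:**
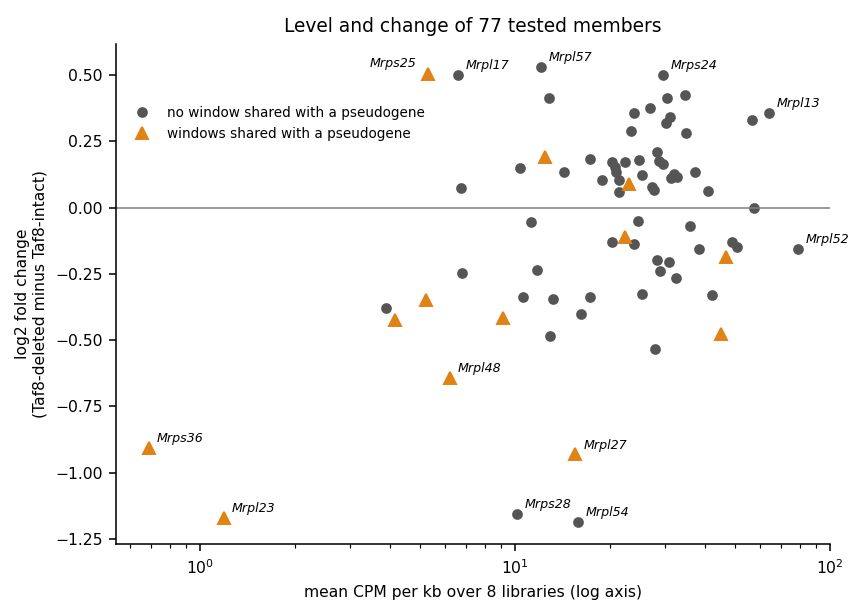
Mean CPM per kilobase over the 8 libraries (log axis) against the log2 fold change (Taf8-deleted minus Taf8-intact) of the 77 tested genes, triangles marking genes that share 100-base windows with an annotated pseudogene. The 6 largest falls all lie among the 26 genes with the lowest levels, and 4 of them are triangles.

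Other properties of the genes were set beside the changes in the same way. Over 77 genes the Spearman correlation with the log2 fold change was -0.24 for the length of the gene on the chromosome, close in size to the 0.25 for level. It was -0.09 for the number of exons, 0.13 for transcript length, 0.07 for GC content and -0.14 for the share of 100-base windows found in other genes. Each is given as a description. Exons of 32 of the tested members overlap exons of another gene, in 27 of them one on the opposite strand. Of these 32 genes, 15 were called higher and 12 lower, against 15 higher and 20 lower among the 45 without overlap. For Mrpl53, 695 of 790 exon bases are shared with Gm42688 on the same strand, so its call is uncertain. The call of Mrps34 is uncertain too. Of its 2064 exon bases, 1309 overlap exons of Mapk8ip3 on the opposite strand and 763 overlap those of Nme3 on the same strand. Mapk8ip3 was called higher, with 380 CPM in Taf8-deleted against 293 CPM in intact cortex (0.37 ± 0.03, adjusted p = 1.59e-06), and Nme3 was not called.

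Many members start close to the start of a gene that runs the other way. A protein-coding gene on the opposite strand starts within 1000 bases of 33 members, in 32 pairs, since Mrpl46 and Mrps11 are partners of each other. In 30 pairs both genes were tested and in 18 both were called, 11 in the same direction and 7 in opposite directions. Of the 11, the members Mrpl13, Mrpl14, Mrpl18, Mrpl27, Mrpl43, Mrpl44, Mrpl46 and Mrpl48 share exon bases with their neighbour. Of the 7, only Mrpl21 does. In these unstranded libraries reads from shared bases cannot be told apart, and their part in the directions was not tested. The Spearman correlation of the log2 fold changes within the 30 pairs was 0.14, as a description. The 7 that moved apart were Mrpl21 and Ighmbp2, Mrpl30 and Mitd1, Mrpl37 and Cyb5rl, Mrpl49 and Fau, Mrpl54 and Apba3, Mrps18b and Ppp1r10, and Mrps27 and Ptcd2. In 6 of them the member was called lower and the neighbour higher. Windows shared with pseudogenes were searched for the members only, so the levels of neighbours, Fau among them, may be uncertain too. The calls of Mrps27 (adjusted p = 0.0528) and Mrpl30 (0.0632) were lost without Taf8-deleted library 1 and intact library 4, and that of Mrpl30 also with upper-quartile factors (0.069) and library totals (0.0929). The pairs described here were chosen after their values were seen.

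The bases between the starts of 4 pairs are shown because the genes on either side of the same short stretch differed in call or direction. They are RefSeq sequences of GRCm38.p6, 5′ to 3′ on the strand of the mitochondrial ribosomal protein gene. Each stretch therefore begins beside the start of the neighbour and ends beside the start of the member. The labels name the member first and do not give this direction. Capitals mark letters of the searched motifs, Sp1 (GGGCGG), ETS (CCGGAAG), NRF1 (GCATGCG), YY1 (ATGGCGG) and TATA box (TATAAA), on either strand, so that CCGCCC is Sp1 and CTTCCGG is ETS read on the other strand. In order the stretches lie at chr4:107066867-107066993 (minus strand), chr1:37890412-37890476 (plus), chr13:99344679-99344785 (plus) and chr7:28741822-28741967 (minus).
Mrpl37 to Cyb5rl: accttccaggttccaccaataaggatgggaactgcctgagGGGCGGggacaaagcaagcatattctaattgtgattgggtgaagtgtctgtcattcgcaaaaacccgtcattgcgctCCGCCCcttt
Mrpl30 to Mitd1: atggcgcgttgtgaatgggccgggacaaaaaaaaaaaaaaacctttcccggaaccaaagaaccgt
Mrps27 to Ptcd2: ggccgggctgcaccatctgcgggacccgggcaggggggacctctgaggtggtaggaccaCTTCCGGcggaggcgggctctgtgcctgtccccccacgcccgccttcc
Mrps12 to Sars2: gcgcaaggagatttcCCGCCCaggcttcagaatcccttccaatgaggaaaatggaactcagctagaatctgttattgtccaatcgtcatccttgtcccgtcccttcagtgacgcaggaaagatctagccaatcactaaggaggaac

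Mrpl37 had 41.4, 43.8, 42.6 and 42.7 CPM in Taf8-deleted libraries, against 50.02, 50.3, 48.3 and 48.1 CPM in intact libraries, a small fall without overlap (-0.21 ± 0.04, adjusted p = 0.000254). Across the 127 bases shown, Cyb5rl, a cytochrome b5 reductase-like gene, rose to 10.1 CPM in Taf8-deleted against 2.30 CPM in intact cortex (2.14 ± 0.11, adjusted p = 1.73e-08). Mrpl30, the counterpart of bacterial L30, fell by 0.15 ± 0.04 (33.1 ± 1.34 CPM in Taf8-deleted against 36.6 ± 0.681 CPM in intact cortex, adjusted p = 0.00702), and Mitd1 rose by 0.34 ± 0.07 (11.9 CPM in Taf8-deleted against 9.36 CPM in intact cortex, adjusted p = 0.00122). Mrps27, a pentatricopeptide repeat protein of the small subunit, fell by 0.23 ± 0.06 (19.9 ± 1.53 CPM in Taf8-deleted against 23.4 ± 0.714 CPM in intact cortex, adjusted p = 0.00391), and Ptcd2, which also encodes a pentatricopeptide repeat protein, rose by 0.12 ± 0.04 (29.97 CPM in Taf8-deleted against 27.65 CPM in intact cortex, adjusted p = 0.0298).

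Mrps12, the counterpart of bacterial S12 at the decoding centre, was not called, with 20.6, 23.1, 23.3 and 18.5 CPM in Taf8-deleted libraries against 18.8, 18.0, 19.2 and 20.3 CPM in intact libraries (0.16 ± 0.07, adjusted p = 0.0716), and its groups overlapped. Sars2, the mitochondrial seryl-tRNA synthetase gene on the other side of the 146 bases, fell to 5.08 CPM in Taf8-deleted against 19.2 CPM in intact cortex (-1.92 ± 0.07, adjusted p = 1.62e-09). Apba3, beside the strongly lower Mrpl54, was higher (24.5 CPM in Taf8-deleted against 20.8 CPM in intact cortex, 0.24 ± 0.06, adjusted p = 0.00644). Among pairs called higher together, Pnpla7 beside Mrpl41 had 19.4 CPM in Taf8-deleted against 6.52 CPM in intact cortex (1.58 ± 0.06). Eme2 beside Mrps34 had 31.0 CPM in Taf8-deleted against 15.3 CPM in intact cortex (1.02 ± 0.05). The call of Mrps34 itself is uncertain for its exon overlaps with other genes, and was lost without Taf8-deleted libraries 2 and 3 (adjusted p = 0.126). Mrpl46 and Mrps11, the pair in which both genes encode mitochondrial ribosomal proteins, rose by 0.17 ± 0.04 and 0.36 ± 0.04.

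**Figure D5:**
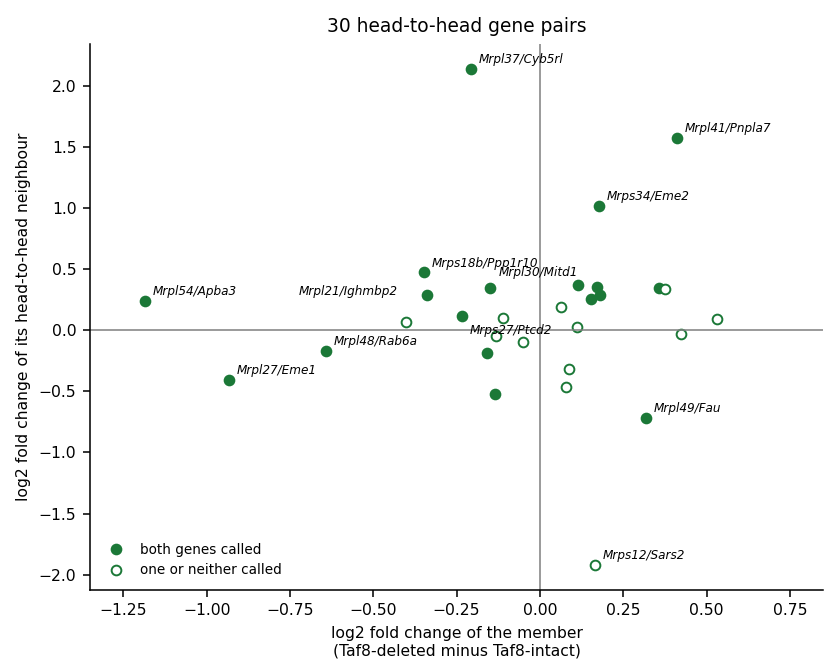
Log2 fold change (Taf8-deleted minus Taf8-intact) of each mitochondrial ribosomal protein gene against that of the opposite-strand gene starting within 1000 bases, for 30 pairs, filled points marking pairs in which both genes were called. The neighbours spread between -1.92 and 2.14, far wider than the members, and 7 of the 18 filled points lie in the quadrants of opposite sign. Some pairs share exon bases, whose reads cannot be told apart in unstranded libraries.

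Promoter windows of 250 bases before to 50 after the start were available for 69 of the 78 members, 75 windows in all. They are set beside all 32851 windows, from 27025 genes. No filter for tested or protein-coding genes was put on that wider set, so it is unlike the members. Whether the shares differ from those of other expressed protein-coding genes was not tested. The windows of the family were rich in GC (59.0%, against 53.8% in all windows), and 52.0% held the Sp1 letters on either strand, against 35.7% of all. ETS letters were in 34.7% against 8.86%, YY1 letters in 17.3% against 4.05% and NRF1 letters in 10.7% against 3.58%. The TATA box letters were in 6.67% against 13.6%. None of these motifs contains another, though YY1 and Sp1 share the letters GGCGG. By call, Sp1 letters were in 69.2% of 26 windows of members called higher, 54.5% of 33 called lower and 3 of 15 not called. ETS letters were in 30.8% of windows of those called higher, 42.4% of those called lower and 26.7% of those not called. NRF1 letters (11.5%, 3.03% and 26.7%, in the same order) and YY1 letters (7.69%, 18.2% and 33.3%) were most frequent in the windows of members not called. Mrpl48 enters with 4 windows, Mrpl2 with 3 that overlap and Mrps16 with 2, so windows are not independent. A match is a run of letters and says nothing on whether a factor was bound, and no match says only that these letters are not in the window.

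The 250 bases before the start are shown, as examples only, for 2 genes that rose and 2 that fell by about 0.5 on the log2 scale. They are RefSeq sequences of GRCm38.p6 on the strand of the gene, with the same capitals. Mrpl17 (chr7:105811088-105811337, minus strand) and Mrps24 (chr11:5707702-5707951, minus) rose, and Mrpl3 (chr9:105053018-105053267, plus) and Mrpl45 (chr11:97315466-97315715, plus) fell.
Mrpl17: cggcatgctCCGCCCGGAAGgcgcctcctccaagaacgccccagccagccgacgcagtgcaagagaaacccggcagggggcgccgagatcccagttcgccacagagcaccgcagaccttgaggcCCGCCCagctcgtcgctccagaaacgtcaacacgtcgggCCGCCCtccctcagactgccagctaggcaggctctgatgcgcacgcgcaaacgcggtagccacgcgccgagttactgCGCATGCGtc
Mrps24: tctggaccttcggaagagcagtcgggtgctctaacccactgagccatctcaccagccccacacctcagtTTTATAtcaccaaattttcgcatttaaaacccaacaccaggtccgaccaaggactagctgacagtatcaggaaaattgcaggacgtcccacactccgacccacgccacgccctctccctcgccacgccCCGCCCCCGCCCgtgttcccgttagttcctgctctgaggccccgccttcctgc
Mrpl3: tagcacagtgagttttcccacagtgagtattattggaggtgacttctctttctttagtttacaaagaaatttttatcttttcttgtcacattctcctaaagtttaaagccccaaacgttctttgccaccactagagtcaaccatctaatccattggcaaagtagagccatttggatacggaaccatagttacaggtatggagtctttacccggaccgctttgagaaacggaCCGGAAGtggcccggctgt
Mrpl45: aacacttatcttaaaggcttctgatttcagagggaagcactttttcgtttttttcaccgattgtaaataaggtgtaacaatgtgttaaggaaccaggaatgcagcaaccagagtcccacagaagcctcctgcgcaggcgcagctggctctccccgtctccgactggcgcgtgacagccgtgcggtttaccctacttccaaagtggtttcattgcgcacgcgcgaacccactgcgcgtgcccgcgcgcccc
The Mrpl17 sequence held Sp1 letters 241, 126 and 87 bases before the start, an ETS match overlapping the first of these, and NRF1 letters on both strands 9 and 10 bases before the start. That of Mrps24 held Sp1 letters 53 and 47 bases before the start and TATA box letters on the opposite strand. That of Mrpl3 held ETS letters 19 bases before the start, and that of Mrpl45 held none of the searched letters. Other members with similar changes differed from these examples. Among the rises, the sequence of Mrps25 held none of the letters, and that of Mrpl57 held only Sp1 letters 247 bases before the start. Among the falls, that of Mrps33 held Sp1 letters 130 and 76 bases before the start, and that of Mrps21 held none.

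Genes that act with the mitochondrial ribosome also moved in both directions, and the counts below stand beside 63.5% of all genes called, 30.6% higher and 32.9% lower. Of 5 mitochondrial ribosomal proteins that carry other names, 2 were called higher and 3 lower (median -0.13). Ptcd3, a pentatricopeptide repeat protein of the small subunit, rose by 0.26 ± 0.04 (80.0 ± 2.82 CPM in Taf8-deleted against 67.0 ± 2.02 CPM in intact cortex, adjusted p = 5.3e-05). Dap3, a GTP-binding protein of the small subunit, rose by 0.16 ± 0.03 (adjusted p = 0.000485), and Gadd45gip1, a large-subunit protein, fell by 0.41 ± 0.06 (adjusted p = 8.63e-05).

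Of 26 assembly and ribosomal RNA modification factors, 12 were called higher, 7 lower and 7 were not called (median 0.07). Eral1, a chaperone of the small-subunit ribosomal RNA, fell by 0.74 ± 0.05 (15.9 ± 1.07 CPM in Taf8-deleted against 26.4 ± 0.60 CPM in intact cortex, adjusted p = 2.63e-07). Dhx30, an RNA helicase, fell by 0.45 ± 0.03 (178 ± 3.77 CPM in Taf8-deleted against 244 ± 6.04 CPM in intact cortex, adjusted p = 1.77e-07). Nsun4, a ribosomal RNA methyltransferase, rose by 0.69 ± 0.06 (20.1 ± 0.544 CPM in Taf8-deleted against 12.5 ± 0.873 CPM in intact cortex, adjusted p = 9.77e-07).

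Of 14 translation factors, 6 were called higher, 3 lower and 5 were not called (median 0.05), near the share called over all genes. Mrrf, the factor that splits the ribosome after termination so that it can be used again, had 13.9, 13.6, 14.0 and 13.9 CPM in Taf8-deleted libraries, against 26.1, 26.4, 26.1 and 26.6 CPM in intact libraries. Libraries within a group hardly differed and the groups were far apart (-0.93 ± 0.04, adjusted p = 7.18e-09). Taco1, a translational activator of cytochrome c oxidase subunit I, and Mtfmt, which formylates the initiator methionyl-tRNA, each rose by 0.43 on the log2 scale (adjusted p = 2.27e-05 and 3.42e-05).

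Of 7 genes of mitochondrial transcription and replication, 5 were called higher and 1 lower (median 0.27). They included the helicase Twnk (0.37 ± 0.04, adjusted p = 3.05e-06), the DNA-packaging and transcription factor Tfam (0.27 ± 0.04, adjusted p = 8.2e-05) and the transcription factor Tfb2m (0.36 ± 0.08, adjusted p = 0.00147). The elongation factor Tefm was lower (-0.29 ± 0.07, adjusted p = 0.00474). Twnk is the opposite-strand neighbour of Mrpl43, with which it shares exon bases.

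Of 9 nuclear regulators of mitochondrial genes, 4 were called higher, 1 lower and 4 were not called (median 0.15). Myc rose by 0.41 ± 0.06 (34.8 ± 1.71 CPM in Taf8-deleted against 26.3 ± 2.43 CPM in intact cortex, SD, n = 4 each, adjusted p = 0.00014) and Yy1 by 0.17 ± 0.04 (adjusted p = 0.00131). Gabpa, the DNA-binding subunit of an ETS factor, fell by 0.14 ± 0.03 (adjusted p = 0.00125). Nrf1 was not called, with 80.4 ± 2.83 CPM in Taf8-deleted and 81.4 ± 3.22 CPM in intact cortex (SD, n = 4 each).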

How the data were processed

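The authors deposited whole-number counts per gene under numeric gene identifiers, not normalized, per the file headers, with 1 column per embryo, and the deposited gene length in bases. Per the labels' protocols, libraries were unstranded and made from polyadenylated RNA with a TruSeq kit. Per the submitters' processing notes, bcl2fastq 1.8.4, Subread 1.5.0, featureCounts and build mm10 were used. For the annotation and for reads that match several places, the sources used here give no setting. The 8 single-library lists were identical to the matrix columns.

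Symbols, coordinates and promoter windows came from RefSeq tables of GRCm38.p6, the assembly of mm10. A symbol was found for 25275 identifiers. The 1904 without one were kept in the fit. They took 1.13% to 1.64% of the counts in Taf8-deleted libraries and 0.490% to 0.530% in intact libraries. Exons, strands and shared 100-base windows came from GENCODE M21.

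Counts were fitted in R 4.3.3 with edgeR 4.0.16 (filterByExpr, TMM, robust quasi-likelihood, Benjamini-Hochberg over 16074 genes), after a check on simulated data. SE were derived from the fold change and its F statistic. Floors and tests cover counting error and the spread between embryos. Library totals lay between 39590959 and 44788200 counts. Alternatives used DESeq2 1.42.0, limma 3.58.1 (voom), other scalings and filters, a replicate block and left-out libraries. The genes named are the 10 largest rises and falls, members within 1 Mb of Taf8, the Mrps18 paralogs, the highest and lowest level per length, and the 3 smallest p of each companion list with the leading gene that moved the other way. The members and lists were chosen with earlier results of these data known.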

Additional observations from a re-analysis of the deposited data

How the results depend on the processing

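Of the 62 called genes, 20 of the 30 higher and 23 of the 32 lower were called the same way in all of the 20 alternatives that tested them. Higher calls numbered between 25 and 32 with 1 library left out and between 20 and 40 otherwise, and lower calls between 27 and 31 and between 24 and 32. For fits with libraries left out, the shares of all genes called are not given here. The 40 higher and 25 lower calls came with upper-quartile factors and with library totals, against 30 and 32 with TMM. Calls over all genes shifted the same way. The median log2 fold change of 0.0608 became 0.118 with upper-quartile factors, 0.123 with library totals and 0.0919 with a filter of CPM above 1 in 4 libraries, which drops Mrpl23 and Mrps36. The summed level of Mrpl genes in Taf8-deleted cortex was 1516 CPM with upper-quartile factors, 1519 with library totals and 1450 without Taf8-deleted libraries 2 and 3, against 1486, and in intact cortex 1425 and 1423 with those scalings, against 1454. The sum of Mrps genes in Taf8-deleted cortex was 669.9 CPM without libraries 2 and 3, against 690, and in intact cortex 640.0 and 639.2 CPM with upper-quartile factors and library totals, against 653. Why the scalings differ was not tested. No direction reversed among the 41 named genes tested. Libraries with the same replicate number did not deviate together (correlations between -0.475 and 0.025). These values gave no sign of pairing by number, but with so few libraries per group they cannot exclude it. With a replicate block, 26 genes were called higher and 29 lower, and Mrps18c was not called (adjusted p = 0.0815). Leaving out the 2 libraries with the most meningeal markers, or the 2 with the most choroid plexus markers in their groups, was chosen after seeing the data. Depth limits Mrpl36, Mrps36 and Mrpl23, each with at most 44 counts in any library.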
